A study of Mus musculus with 288 samples.

Results

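The genes described here are 31 genes of mitochondrial and peroxisomal fatty acid oxidation, taken by gene symbol from the 21869 genes of mouse liver count tables. They were chosen by their place in the pathway, with earlier results of these data known. All 31 were listed in every table, and all 31 were among the 12228 genes with enough counts to be tested.

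Fatty acids reach the mitochondrion as acyl-CoA through the carnitine shuttle and are shortened there by repeated rounds of dehydrogenation, hydration, a further dehydrogenation and thiolysis. Peroxisomes shorten very long and branched chains with enzymes of their own and pass the shorter products on as carnitine esters. In the liver many of these genes are targets of the nuclear receptor PPARA, which is active during fasting, and their products feed ketone body synthesis. The 31 genes fall into 7 roles: 9 enzymes of mitochondrial beta oxidation, 3 proteins for activation and entry, 3 for electron transfer, 5 for unsaturated fatty acids, 4 enzymes of peroxisomal beta oxidation, 4 acyl-CoA thioesterases, and 3 proteins of peroxisomal import, export and division.

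The study asked how caloric restriction (CR), the timing of meals and the length of the daily fast act on the aging liver. Wild-type C57BL/6J male mice lived singly with running wheels, and polyA RNA was sequenced from their livers at 19 and 6 months of age. The ration of all 5 CR groups was set at 70% of the calories eaten by mice fed ad libitum (AL), which had food for 24 h a day. It stayed as it was when AL mice ate more later in life, so that restriction relative to AL was stronger at 19 months. CR-day-2h and CR-night-2h mice received their allotment at the start of the light or the dark phase and ate it within 2 h, so that a long fast followed. CR-day-12h and CR-night-12h mice were given a 300 mg pellet every 90 min through the 12 h of light or of dark. CR-spread mice were given a 300 mg pellet every 160 min around the clock and had no long fast. The 6 feeding conditions at 2 ages made 12 groups of 24 livers, sampled every 4 h over hours 0 to 44 with 2 mice (A and B) per time point. Housing is described with alternating light and dark, and collection with constant darkness. Each of the 288 libraries came from another mouse.

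The libraries held 2796688 to 18706281 counts, and the 31 genes took 0.412% to 1.15% of them. Correlations of each library with the median of its group ranged over 0.935 to 0.993, with 4 libraries below 0.95: CR-day-2h hour 20 A and CR-night-2h hour 8 A at 6 months, and CR-day-12h hour 0 B and CR-night-2h hour 28 B at 19 months. The values that rest most on them are also given without them. Of the 8 hepatocyte markers, 7 passed the filter, and their summed level was at least 55474 CPM (counts scaled to equal library size) in every library. Alb gave most of this sum, so differences in the sum mainly follow Alb. Its group means ran from 66702 CPM in AL to 109872 CPM in CR-night-2h, both at 19 months. None of the 4 adipocyte markers passed the filter. In whole liver, fewer cells of a type and less RNA per cell cannot be told apart.

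Per length, in the authors' RPKM (reads scaled to transcript length and library size), the most abundant of the 31 transcripts in AL livers at 6 months was Acaa2, the mitochondrial thiolase, with a median of 265 RPKM. Acaa1b, a peroxisomal thiolase, followed with 145, Acsl1, which activates long-chain fatty acids, with 98.3, and Abcd3, an importer of the peroxisomal membrane, with 94.3. The 4 thioesterases stood at the low end, down to 0.710 RPKM for Acot2. In all 30 neighbouring pairs in this order the ranges over the 24 livers overlapped, and differences between neighbours were not tested.

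**Figure D1:**
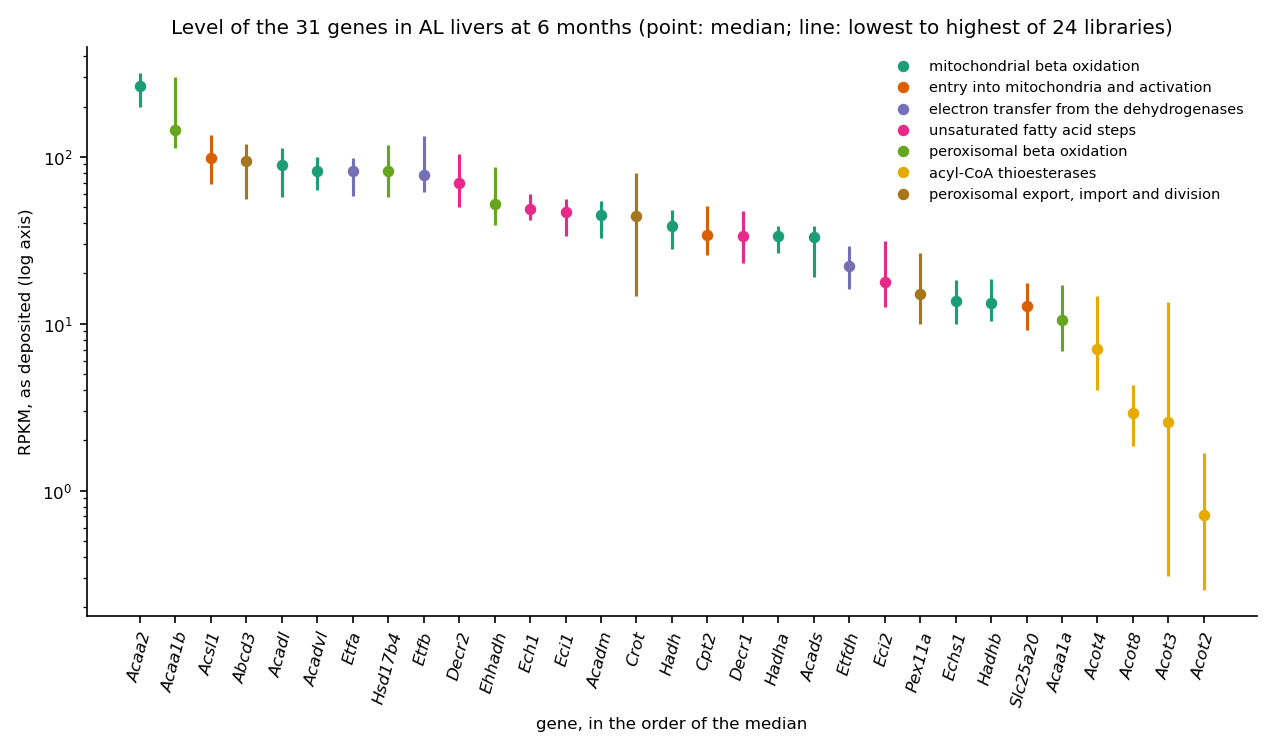
Level of each of the 31 genes in the 24 AL livers at 6 months, in the deposited RPKM on a log axis; points are medians, lines run from the lowest to the highest library, and colours give the role. Acaa2 has the highest median (265 RPKM) and Acot2 the lowest (0.710 RPKM), and each gene overlaps its neighbour.

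In young mice some of the 31 genes were higher under CR, with the most calls in the group fed in a single meal by day. A change was called where the adjusted p (padj) from edgeR's quasi-likelihood test with Benjamini-Hochberg adjustment was under 0.05 and the fold change was at least 1.5. In CR-day-2h against AL at 6 months 8 of the 31 genes rose and none fell, when 8.16% of all genes passed in either direction. By padj alone 24 genes were higher, against 20.1% of all genes, and 1 was lower. The median log2 fold change (log2FC) was 0.37 over the 31 genes and 0.02 over all genes. All 5 CR groups were set against the same 24 AL livers, so these comparisons are not independent of each other.

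The other CR groups at 6 months had fewer calls. CR-day-12h had 4 genes higher and none lower (6.53% of all genes), CR-night-2h also 4 and none (7.21%), CR-spread 3 higher and 1 lower (7.47%), and CR-night-12h 3 higher and 1 lower (6.63%). By padj alone 16 genes were higher in CR-day-12h, against 12.7% of all genes. The medians of the 31 genes were 0.17 in CR-day-12h, 0.11 in CR-night-2h, -0.01 in CR-night-12h and -0.05 in CR-spread. The genes called higher in all 5 CR groups were the thioesterases Acot2, Acot3 and Acot4. Markers of cell types also stood at other levels than in AL. Hepatocyte markers summed to medians of 108884 to 122045 CPM in the CR groups against 92986 CPM in AL at 6 months, sinusoidal endothelial markers to 216.1 to 245.2 against 179.3 CPM, stellate cell markers to 333.9 to 390.9 against 320.7 CPM and macrophage markers to 90.9 to 140.5 against 168.4 CPM. Their part in these results was not tested.

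**Figure D2:**
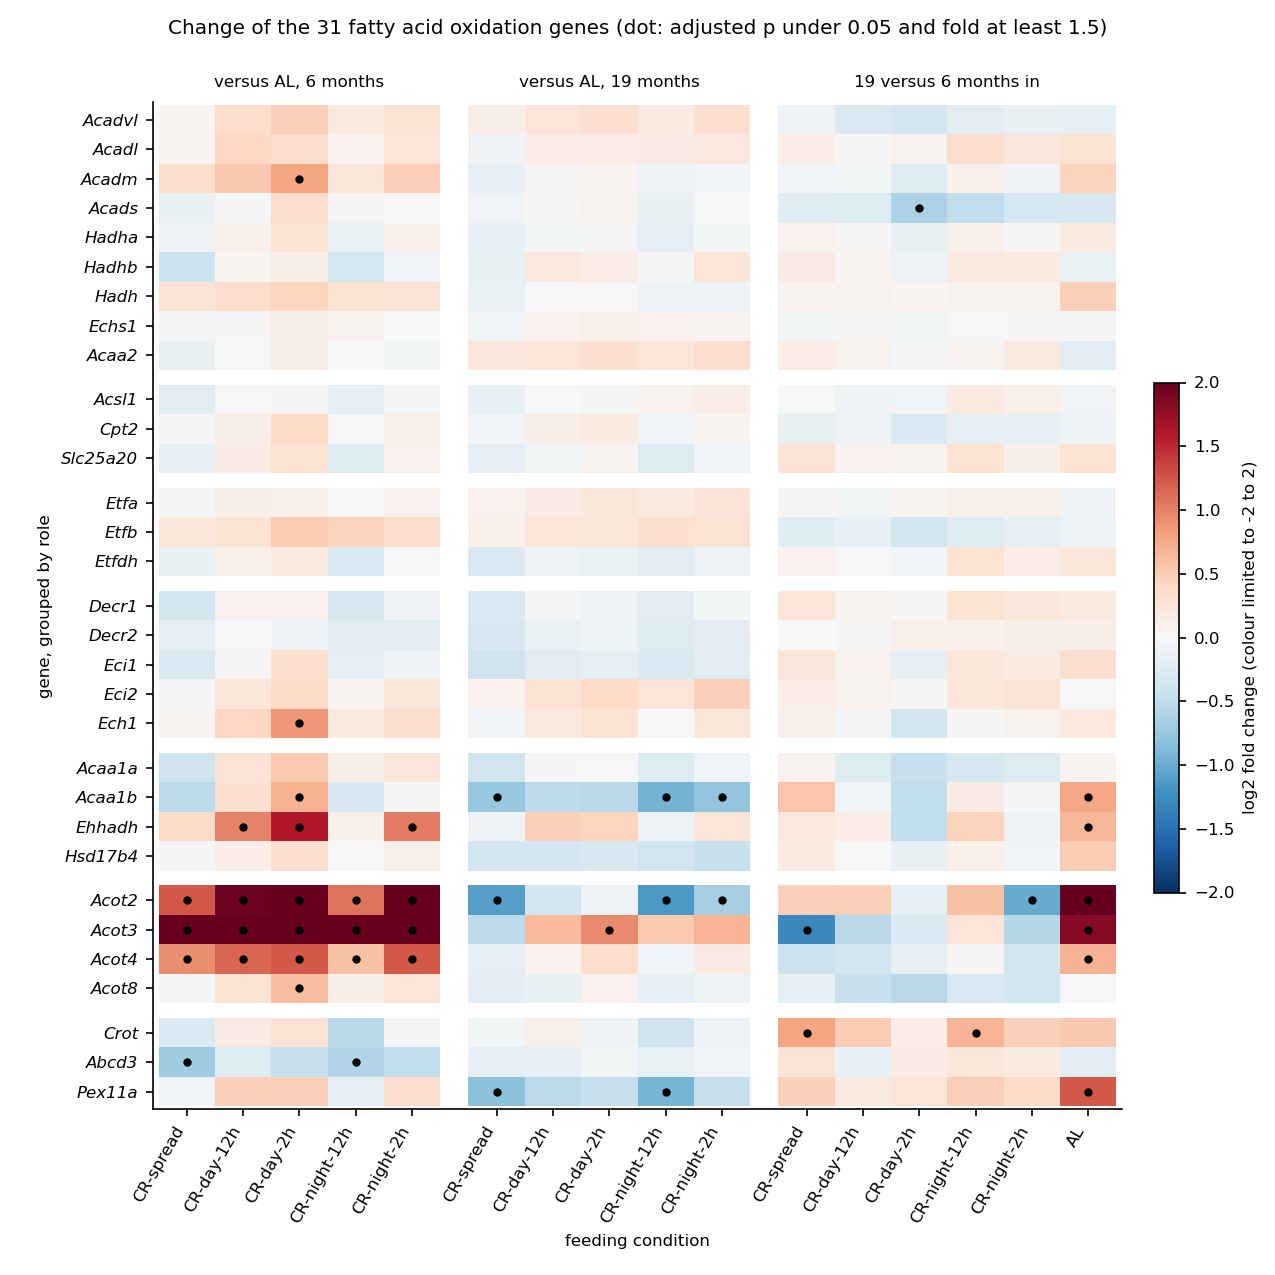
Log2FC of the 31 genes, grouped by role from top to bottom, in each CR group against AL at 6 and at 19 months and at 19 against 6 months within each feeding condition. Dots mark padj under 0.05 with a fold change of at least 1.5: 8 genes in CR-day-2h and 6 with age in AL, all of them higher.

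Acyl-CoA thioesterases split acyl-CoA into free fatty acid and coenzyme A. Acot2 acts in mitochondria and Acot3 and Acot4 in peroxisomes, and the genes lie in 1 cluster on the forward strand of chromosome 12, with Acot1 between Acot2 and Acot4. In GRCm38 Acot2 spans 83987861 to 83993873, Acot4 84038379 to 84048601 and Acot3 84052144 to 84060402. Their RefSeq promoters (build GRCm38.p6, 250 bases before to 50 after the start, forward strand) are shown because the 3 genes were called higher in all 5 CR groups at 6 months. Capitals mark an E-box (CACGTG), the motif bound by CLOCK and BMAL1, and a match on the reverse strand to GGNCANAGGNCA, a direct repeat of the kind PPARA binds less its outer base; these letters were chosen after the sequence had been read.
Acot2 (chr12:83987611-83987910): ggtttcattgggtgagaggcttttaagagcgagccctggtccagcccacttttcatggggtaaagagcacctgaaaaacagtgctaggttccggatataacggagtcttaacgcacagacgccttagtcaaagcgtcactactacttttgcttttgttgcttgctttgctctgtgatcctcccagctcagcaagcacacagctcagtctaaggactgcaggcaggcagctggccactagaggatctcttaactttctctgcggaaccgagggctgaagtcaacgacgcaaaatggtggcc
Acot4 (chr12:84038129-84038428): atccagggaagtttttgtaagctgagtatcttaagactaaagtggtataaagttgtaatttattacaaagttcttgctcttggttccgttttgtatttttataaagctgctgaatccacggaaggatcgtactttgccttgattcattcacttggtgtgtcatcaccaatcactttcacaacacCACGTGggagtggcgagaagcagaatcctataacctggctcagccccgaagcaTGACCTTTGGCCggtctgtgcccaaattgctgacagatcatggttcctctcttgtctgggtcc
Acot3 (chr12:84051894-84052193): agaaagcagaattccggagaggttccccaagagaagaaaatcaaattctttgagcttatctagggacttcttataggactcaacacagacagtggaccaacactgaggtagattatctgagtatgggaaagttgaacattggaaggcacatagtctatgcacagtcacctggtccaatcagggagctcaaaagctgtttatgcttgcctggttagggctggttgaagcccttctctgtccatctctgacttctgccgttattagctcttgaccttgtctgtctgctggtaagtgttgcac
Of the 31 genes 28 had such a promoter. Both strands were searched. The E-box was found in Acot4 alone, at position -66 from the start, and in 7.1487% of 32817 promoters, and GGNCANAGGNCA also in Acot4 alone, at -13, and in 0.8014%. The full repeats AGGNCANAGGNCA and AGGTCANAGGTCA, which contain it, were in none of the 28 and in 0.3809% and 0.0396% of promoters, and the D-box (TTATGTAA, TTACATAA or TTACGTAA) was in none and in 1.0543%.

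Acot2 had 2.21 CPM in the lowest, 6.77 in the median and 82 in the highest CR-night-2h liver at 6 months, against 0.616, 1.88 and 4.11 CPM in AL. Its log2FC was 3.14 ± 0.28 (SE, n = 24 livers per group, padj = 4.3e-21). In CR-day-2h it had 2.89, 10.9 and 76.4 CPM and a log2FC of 2.89 ± 0.28 (padj = 1.9e-18). The ranges overlapped with AL in both groups, and the top of each was set by few livers: in CR-night-2h hours 8, 12 and 36 of the A mice gave 82, 75.6 and 63.8 CPM, beside 2.2, 7.0 and 27.3 CPM in the B mice. The log2FC of Acot2 was 2.89 in CR-night-2h and 2.59 in CR-day-2h without the 4 libraries named above.

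The other CR groups had lower values of Acot2; the differences between CR groups were not tested one by one. Its log2FC was 1.96 ± 0.29 in CR-day-12h (padj = 3.7e-09), 1.24 ± 0.30 in CR-spread and 1.09 ± 0.30 in CR-night-12h. With the A mice alone the changes in CR-spread and CR-night-12h were no longer called (log2FC = 0.90 and 0.80, padj = 0.15 and 0.23).

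Acot3 varied widely within each group. It had 10, 113 and 420 CPM (lowest, median and highest) in CR-night-2h, 14.4, 116 and 310 in CR-day-2h, 15.2, 135 and 239 in CR-day-12h, 14.9, 85.5 and 199 in CR-spread and 1.69, 47.4 and 243 in CR-night-12h, against 1.2, 10.1 and 54.4 CPM in AL. Every CR group had its median above the highest AL liver except CR-night-12h, and every range overlapped with AL. The log2FC was 3.07 ± 0.35 in CR-night-2h (padj = 2.3e-14), 3.06 in CR-day-2h, 3.01 in CR-day-12h, 2.58 in CR-spread and 2.08 in CR-night-12h.

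Acot4 moved less, with 60.9, 136 and 291 CPM in CR-day-2h against 29.1, 53.5 and 115 CPM in AL (log2FC = 1.23 ± 0.16, padj = 3.6e-11). Its log2FC was 1.24 in CR-night-2h, 1.16 in CR-day-12h, 0.93 in CR-spread and 0.59 in CR-night-12h, just past the fold threshold (padj = 0.0021). It fell short of that threshold there without the 4 libraries (0.58), and with the B mice alone it was 0.47 (padj = 0.11). Acot8, a peroxisomal thioesterase on another chromosome, had 6.48, 9.36 and 22.4 CPM in CR-day-2h against 4.41, 6.7 and 9.47 CPM in AL (log2FC = 0.61 ± 0.11, padj = 2.9e-07). It was not called in the other CR groups, and in CR-day-2h it was 0.40 with the B mice alone. Of all stretches of 50 bases in the Acot2 transcript 27.7% also occur in another gene, mainly Acot1, and 19.5% of those of Acot3 and 4.88% of those of Acot4 do, so that reads may have been split among these copies. Acot4 and Acot3 also overlap another annotated gene, Gm49366, and an antisense gene, so their counts are uncertain.

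**Figure D3:**
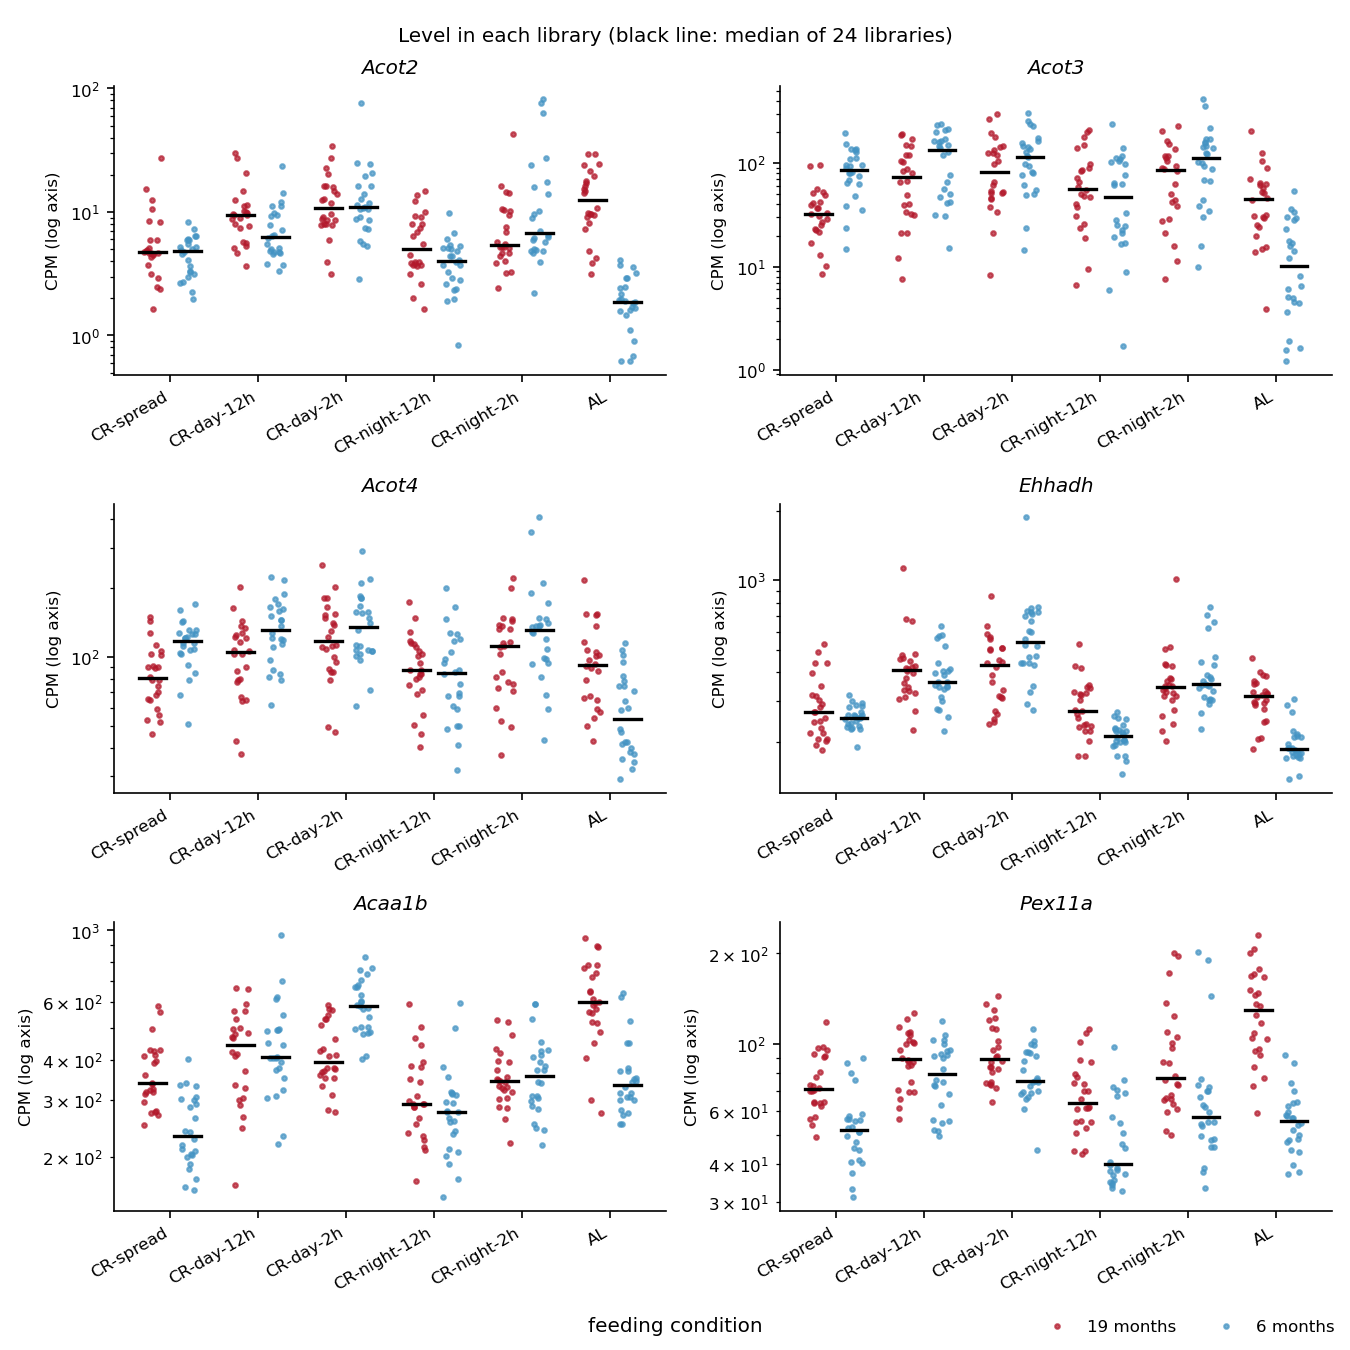
CPM of 6 genes in each liver, on log axes, with 19 months left of 6 months for each feeding condition; points are libraries and black lines medians of 24. For Acot2, Acot3 and Acot4 the AL median at 6 months (1.88, 10.1 and 53.5 CPM) is the lowest of the 12, and at 19 months the AL median of Acot2 (12.6 CPM) lies above every CR median.

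Among the peroxisomal genes Ehhadh, the bifunctional enzyme that hydrates and dehydrogenates the shortened chain, rose in the 3 CR groups fed by day or in a single meal at night. It had 274, 541 and 1879 CPM in CR-day-2h against 137, 186 and 305 CPM in AL (log2FC = 1.61 ± 0.12, padj = 1.2e-27). Most CR-day-2h livers lay above the AL range, and the highest value came from hour 20 A. Without the 4 libraries the log2FC of Ehhadh was 1.46. It was 1.03 ± 0.12 in CR-night-2h (padj = 2.0e-13) and 0.99 ± 0.12 in CR-day-12h (padj = 1.9e-12), and 0.38 in CR-spread and 0.10 in CR-night-12h, where it was not called.

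The thiolase Acaa1b had 401, 586 and 827 CPM in CR-day-2h against 253, 335 and 642 CPM in AL (log2FC = 0.72 ± 0.11, padj = 3.8e-08). In the other CR groups at 6 months its log2FC lay between -0.54 and 0.32. Acaa1a and Acaa1b share 34.0% and 35.5% of their 50-base stretches with each other, so their counts may be mixed. Abcd3, which imports fatty acids into the peroxisome, was the only one of the 31 genes called lower than in AL at 6 months. It had 309, 426 and 636 CPM in CR-spread against 497, 713 and 978 CPM in AL (log2FC = -0.70 ± 0.09, padj = 8.1e-13), and its log2FC was -0.61 ± 0.09 in CR-night-12h (padj = 8.9e-10). With the A mice alone the log2FC of Abcd3 in these groups was -0.57 and -0.44, under the fold threshold.

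At 6 months, of the 9 enzymes of mitochondrial beta oxidation only Acadm, the dehydrogenase of medium chains, passed both thresholds, and only in CR-day-2h. It had 274, 348 and 484 CPM in CR-day-2h against 166, 195 and 253 CPM in AL (log2FC = 0.79 ± 0.05, padj = 1.8e-32), and every CR-day-2h liver was above every AL liver. Of the 9 mitochondrial enzymes 7 were higher by padj alone in CR-day-2h and none was lower, with log2FC between 0.13 and 0.79. Ech1, an isomerase for dienes found in both organelles, behaved alike, with 173, 241 and 334 CPM in CR-day-2h against 111, 131 and 159 CPM in AL (log2FC = 0.88 ± 0.07, padj = 1.4e-27). Its groups did not overlap either.

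No gene of activation and entry (Acsl1, Cpt2, Slc25a20) or of electron transfer (Etfa, Etfb, Etfdh) was called in any of the 5 comparisons at 6 months. In CR-day-2h the log2FC of the entry genes was 0.03 to 0.40 and that of the electron transfer genes 0.12 to 0.51. Over all 25 comparisons of group means 17 of the 31 genes were never called. Hadhb and Etfb share 62.4% and 67.3% of their 50-base stretches with other genes, and their values are uncertain for that reason.

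With age in AL livers 3 of 4 thioesterases, 2 of 4 enzymes of peroxisomal beta oxidation and Pex11a rose. At 19 against 6 months 6 of the 31 genes rose and none fell, when 15.3% of all genes passed in either direction. By padj alone 17 were higher, against 24.5% of all genes, and 5 were lower. The median log2FC was 0.19 over the 31 genes and -0.01 over all genes. The 31 genes took a median of 0.796% of the counts in AL livers at 19 months and 0.651% at 6 months.

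Acot2 had 3.15, 12.6 and 29.7 CPM at 19 months against 0.616, 1.88 and 4.11 CPM at 6 months in AL (log2FC = 2.82 ± 0.28, padj = 1.4e-18). Only the lowest old livers reached into the young range. Pex11a, which drives elongation and division of peroxisomes, had 59.0, 130 and 230 CPM against 37, 55.7 and 92 CPM (log2FC = 1.22 ± 0.13, padj = 4.2e-17). The other 4 were Acot3 with a log2FC of 1.82 ± 0.34 (padj = 9.8e-07), Acaa1b with 0.78 ± 0.11 (padj = 1.2e-09), Acot4 with 0.69 ± 0.16 (padj = 0.00011) and Ehhadh with 0.66 ± 0.12 (padj = 8.6e-07). With the B mice alone the log2FC of Acaa1b and Ehhadh was 0.45 and 0.48, under the fold threshold. Acot8 had a log2FC of -0.02 with age, and Abcd3 was lower by padj alone (-0.23, padj = 0.017).

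Of the 9 mitochondrial enzymes 4 were higher and 4 were lower by padj alone with age in AL, and none passed both thresholds, with log2FC between -0.34 for Acads, the dehydrogenase of short chains, and 0.47 for Hadh, which oxidizes hydroxyacyl-CoA. Markers of other cells moved with age in AL as well. The 10 macrophage markers summed to 307.6 CPM (median) in AL livers at 19 months and 168.4 CPM at 6 months, with 8 of 10 called higher, and the 8 stellate cell markers to 520.6 and 320.7 CPM, with 5 of 8 called higher. The 2 tested of 6 markers of T and NK cells were called higher, as was 1 of 6 for sinusoidal endothelial cells and 1 of 4 for cholangiocytes. The 4 tested of 5 markers of B and plasma cells were called higher and reached 7.30 CPM against 3.09 CPM. Hepatocyte markers summed to 84873 CPM at 19 months and 92986 CPM at 6 months, with 2 of 7 called lower. Their part in the changes with age was not tested.

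At 19 months, set against AL of the same age, few of the 31 genes were called. CR-spread had none of the 31 genes higher and 3 lower (10% of all genes passed in either direction), CR-night-12h none and 3 (12.5%), CR-night-2h none and 2 (11.5%), CR-day-12h none in either direction (9.54%) and CR-day-2h 1 higher (8.87%). Over all genes calls were mostly lower too, with 956 lower and 267 higher in CR-spread, 1089 and 436 in CR-night-12h and 983 and 429 in CR-night-2h, and the members' shares were near or below those of all genes. In CR-day-12h 13 genes had a padj under 0.05, against 34.5% of all genes. An unadjusted p under 0.05 was found for 15, all short of the fold threshold, and DESeq2 also called 0. In CR-spread 14 genes were lower by padj alone, against 17.6% of all genes, and the median log2FC was -0.17 over the 31 genes and 0.01 over all. The 24 AL livers at 19 months were again shared by the 5 comparisons.

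The genes that were lower were Acaa1b, Pex11a and Acot2. Acaa1b had 169, 292 and 595 CPM in CR-night-12h at 19 months against 273, 601 and 948 CPM in AL (log2FC = -0.95 ± 0.11, padj = 6.0e-13), and its log2FC was -0.80 in CR-night-2h and -0.76 in CR-spread. Pex11a had 43.1, 63.9 and 113 CPM in CR-night-12h against 59.0, 130 and 230 CPM in AL (log2FC = -0.94 ± 0.13, padj = 9.7e-11), and -0.81 in CR-spread. Most old AL livers lay above most CR-night-12h livers for both genes, and the ranges overlapped.

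Acot2 was lower in CR-night-12h (log2FC = -1.16 ± 0.26, padj = 7.4e-05), in CR-spread (-1.10 ± 0.26, padj = 0.00022) and in CR-night-2h (-0.69). With the B mice alone the log2FC of Acot2 in CR-spread and CR-night-2h was -0.65 and -0.20 and was not called (padj = 0.19 and 0.71), and that of Acaa1b in CR-night-2h was -0.47. Acot3 in CR-day-2h was the only gene called higher at 19 months, with 8.31, 82.1 and 299 CPM against 3.85, 45.3 and 208 CPM in AL (log2FC = 0.95). With the B mice alone it was 0.45 (padj = 0.50). The markers of macrophages also differed between these groups, with 9 of 10 called lower in each of the 5 CR groups than in AL at 19 months. Hepatocyte markers summed to medians of 114488 to 134702 CPM in the CR groups against 84873 CPM in AL. Stellate cell markers summed to 353.8 to 426.0 against 520.6 CPM, and sinusoidal endothelial markers to 149.3 to 164.3 against 186.2 CPM. The part of these markers in the result was not tested.

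The genes with the smallest p in CR-day-12h and CR-day-2h at 19 months changed by less than the fold threshold. Hsd17b4, the multifunctional enzyme for branched chains, had a log2FC of -0.37 ± 0.05 in CR-day-12h (padj = 2.5e-09) and -0.33 ± 0.05 in CR-day-2h (padj = 7.5e-08). In CR-night-2h it was -0.46 ± 0.05 (padj = 5.2e-14), with 278, 338 and 397 CPM against 321, 456 and 584 CPM in AL. Acadvl, the dehydrogenase of very long chains, had a log2FC of 0.26 to 0.33 in the same 3 groups.

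Within the CR groups few of the 31 genes passed both thresholds with age. At 19 against 6 months CR-spread had 1 gene higher and 1 lower (8.51% of all genes), CR-night-12h 1 higher (7.72%) and CR-day-2h 1 lower (9.23%). CR-night-2h had 1 lower (4.48%) and CR-day-12h none (6.67%). In CR-day-12h edgeR gave 5 genes a padj under 0.05, against 29.2% of all genes. It gave 7 genes an unadjusted p under 0.05, and DESeq2 also called 0. Crot, which makes carnitine esters of the peroxisome's products, was the gene called higher, with 155, 379 and 798 CPM at 19 months against 72.6, 191 and 444 CPM at 6 months in CR-spread (log2FC = 0.79 ± 0.19, padj = 0.00039) and a log2FC of 0.69 in CR-night-12h. With 1 mouse letter left out Crot lost its call in each group (padj = 0.056 in CR-spread with the A mice, 0.073 in CR-night-12h with the B mice).

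By padj alone 11 of the 31 genes were higher and 4 lower at 19 months in CR-spread (16.9% and 16.2% of all genes). CR-night-12h had 11 higher and 5 lower (22.3% and 20.6% of all genes). CR-night-2h had 7 and 7 (16.3% and 16.3%) and CR-day-12h 1 and 4 (16.3% and 13%). In CR-day-2h 13 were lower by padj alone, against 23.1% of all genes, and none was higher, with a median of -0.15 against 0.02 over all genes. Acads passed both thresholds, with 50.3, 70.6 and 92.6 CPM at 19 months against 84.6, 109 and 142 CPM at 6 months (log2FC = -0.63 ± 0.07, padj = 7.5e-14), and the ranges overlapped only at their ends. With the B mice alone it was -0.49. In CR-night-2h Acot2 was lower with age (padj = 0.00078 by edgeR); this call was lost with the B mice alone, where its log2FC was -0.04 (padj = 0.96), and it was -1.03 without the 4 libraries. Acot3 was lower in CR-spread (log2FC = -1.28), with padj = 0.050 for the B mice alone.

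The difference between the age effect under CR and that under AL was tested directly, as an interaction. Of 155 pairs of a gene and a CR group 30 passed both thresholds, and in all 30 the age effect was lower under CR than under AL. CR-day-2h had 9 such genes (12.6% of all genes passed in either direction), CR-night-2h 7 (17.1%), CR-day-12h 5 (8.36%), CR-night-12h 5 (11.8%) and CR-spread 4 (12.1%). Over all genes the called interactions were also mostly lower, with 959 lower and 583 higher in CR-day-2h, 1462 and 634 in CR-night-2h, 641 and 381 in CR-day-12h, 971 and 474 in CR-night-12h and 980 and 497 in CR-spread, where the members' share was near that of all genes. In CR-day-2h 19 genes were lower by padj alone, against 15.8% of all genes, and the median was -0.31 against 0.00 over all genes. The 30 interactions came from 9 genes. Acot2, Acot3, Acot4 and Pex11a passed in all 5 CR groups, Acaa1b in 4, Ehhadh and Hsd17b4 in CR-day-2h and CR-night-2h, and Acadm and Ech1 in CR-day-2h. With the B mice alone the interaction was not called for Acaa1b in CR-night-12h (-0.13) and CR-night-2h (-0.33) or for Ehhadh in CR-night-2h (-0.32). Without the 4 libraries Hsd17b4 in CR-night-2h fell short of the fold threshold (-0.58). Other interactions also lost their call in some of 9 alternative analyses. Acot4 in CR-night-12h and Ech1 in CR-day-2h each kept it in 7. Acot3 in CR-day-12h, CR-day-2h and CR-night-12h each kept it in 8. So did Acaa1b in CR-day-12h and Hsd17b4 in CR-day-2h.

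The largest was that of Acot2 in CR-night-2h, with an age effect lower by 3.82 on the log2 scale (log2FC = -3.82 ± 0.38, padj = 3.7e-18). It was -3.85 without the 4 libraries. Pex11a ranged over -0.74 in CR-night-12h and CR-spread to -1.04 in CR-day-12h. All 5 interactions subtract the same age effect of AL and so are not independent. The AL livers at 6 months in that age effect were also the reference for CR at 6 months. Acot2, Acot3 and Acot4 were called higher in all 5 CR groups there, so their interactions are not separate from that difference. Acot3 in CR-spread had a log2FC of 2.58 against AL at 6 months, and its age effect was -1.28 there and 1.82 in AL. The AL libraries at 6 months also differed in depth between the A and B mice, with medians of 7761930 and 15912900 counts.

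The time of a single daily meal, with calories alike, was compared between CR-night-2h and CR-day-2h. At 6 months 1 of the 31 genes was lower in CR-night-2h and none was higher, when 0.638% of all genes passed in either direction. By padj alone 14 were lower, against 1.71% of all genes, and none was higher. The median was -0.20 over the 31 genes and 0.01 over all. Acaa1b had 218, 356 and 593 CPM in CR-night-2h against 401, 586 and 827 CPM in CR-day-2h (log2FC = -0.70 ± 0.11, padj = 5.3e-06).

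Below the fold threshold, Ech1 had a log2FC of -0.51 ± 0.07 (padj = 3.5e-09) and Eci1, an isomerase of unsaturated acyl-CoA, -0.41 ± 0.07 (padj = 8.7e-06). By role, 6 of 9 mitochondrial enzymes, 3 of 4 peroxisomal enzymes and 2 of 5 genes for unsaturated fatty acids were lower in CR-night-2h by padj alone. At 19 months none of the 31 genes had a padj under 0.05 in this comparison (0.393% of all genes passed both thresholds), and the smallest was 0.27 for Acadm (log2FC = -0.13 ± 0.05). By unadjusted p 6 genes were under 0.05, all lower in CR-night-2h. DESeq2 also called 0, and without the 4 libraries 1 gene was called.

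The presence of a daily fast was compared as the mean of the 4 CR groups with a fast against CR-spread. At 6 months all 31 genes had a positive log2FC, between 0.05 and 1.03, with a median of 0.24 against 0.02 over all genes. By padj alone 22 were higher, against 4.61% of all genes, and none was lower. Past both thresholds 3 were higher, when 0.842% of all genes passed in either direction. The groups with a fast were not alike at 6 months. Against AL the median of the 31 genes in CR-night-12h was close to that in CR-spread. It was higher in CR-day-2h, CR-day-12h and CR-night-2h. At 19 months 12 were higher by padj alone, against 1.63% of all genes, and 1 passed both thresholds (0.769%).

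The genes past both thresholds at 6 months were Acaa1a (log2FC = 0.70 ± 0.08, padj = 5.7e-12), Acaa1b (0.72 ± 0.09, padj = 8.6e-10) and Acot2 (1.03 ± 0.23, padj = 0.00064). Acot2 did not stand above CR-spread in every group with a fast. Its log2FC against AL was 1.24 in CR-spread and 1.09 in CR-night-12h, beside 1.96 in CR-day-12h, 2.89 in CR-day-2h and 3.14 in CR-night-2h. The thiolase Acaa1a had medians of 66.1 CPM in CR-day-12h, 77.4 in CR-day-2h, 64.2 in CR-night-12h and 63.8 in CR-night-2h, against 41.5 CPM in CR-spread. The highest CR-spread liver, at 58.0 CPM, was below each of these medians. With the B mice alone Acaa1a and Acaa1b fell under the fold threshold (log2FC = 0.49 and 0.56) and Acot2 lost its call (padj = 0.40). At 19 months the called gene was Acot3 (log2FC = 1.22), which lost its call with either letter alone (padj = 0.29 and 0.060).

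The level of many of the 31 genes also changed through the day. A daily rhythm was called where a cosine of 24 h fitted better than a constant (edgeR, padj under 0.05) and the fitted peak was at least 0.3 above the trough on the log2 scale. In AL 22 of the 31 genes cycled at 19 months, when 24.2% of all genes did, and 16 at 6 months (27.3%). In CR-night-2h 16 cycled at 19 months (37.9%) and 11 at 6 months (36%), and in CR-night-12h 15 (39.8%) and 13 (30.3%). In CR-day-12h 13 cycled at each age (33.9% at 19 months and 37.7% at 6 months), in CR-day-2h 10 (31.3%) and 8 (33.6%), and in CR-spread 6 (14.5%) and 3 (18.4%).

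The share of cycling genes among the 31 was above that of all genes at both ages in AL, CR-night-12h and CR-day-12h. It was near that of all genes in CR-night-2h at 6 months and in CR-day-2h at 19 months. In CR-night-2h and CR-spread it was above at 19 months, and in CR-day-2h and CR-spread it was below at 6 months. With the mice of 1 letter alone 10 to 11 of the 31 genes cycled in AL at 19 months and 6 to 8 at 6 months. At 19 months such counts were 2 to 9 in CR-day-2h and 1 to 8 in CR-spread. Crot cycled in 11 of the 12 groups, Eci2 and Acaa1a in 10 and Pex11a in 9, whereas Hadha, Etfa and Acot8 cycled in none.

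In AL at 6 months the smallest p belonged to Eci2, an isomerase of unsaturated acyl-CoA found in peroxisomes and mitochondria. It peaked at hour 12.0 with a peak 1.06 ± 0.12 above its trough on the log2 scale (padj = 9.0e-09). In the 2 cycles it had 154.5 and 198.4 CPM at hour 12 and 142.1 and 204.0 CPM at hour 36, against 88.9 and 78.4 CPM at hour 0 and 97.6 and 79.0 CPM at hour 24. Acot3 swung by 3.2 ± 0.71 around hour 13.7 (padj = 4.9e-05). Acot4 swung by 1.25 ± 0.25 around hour 13.1, Decr1, a reductase of dienoyl-CoA, by 0.53 ± 0.09 around hour 12.8, and Acadl, the dehydrogenase of long chains, by 0.50 ± 0.07 around hour 12.6. Crot peaked at hour 1.9 (1.19 ± 0.21). With the mice of 1 letter alone the rhythms of Decr1 (padj = 0.066), Acot4 (0.093) and Crot (0.24) were not called. For reading the time axis, the clock genes Arntl, Nr1d1 and Per2 peaked at hours 22.3, 6.8 and 14.6 in the same livers.

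**Figure D4:**
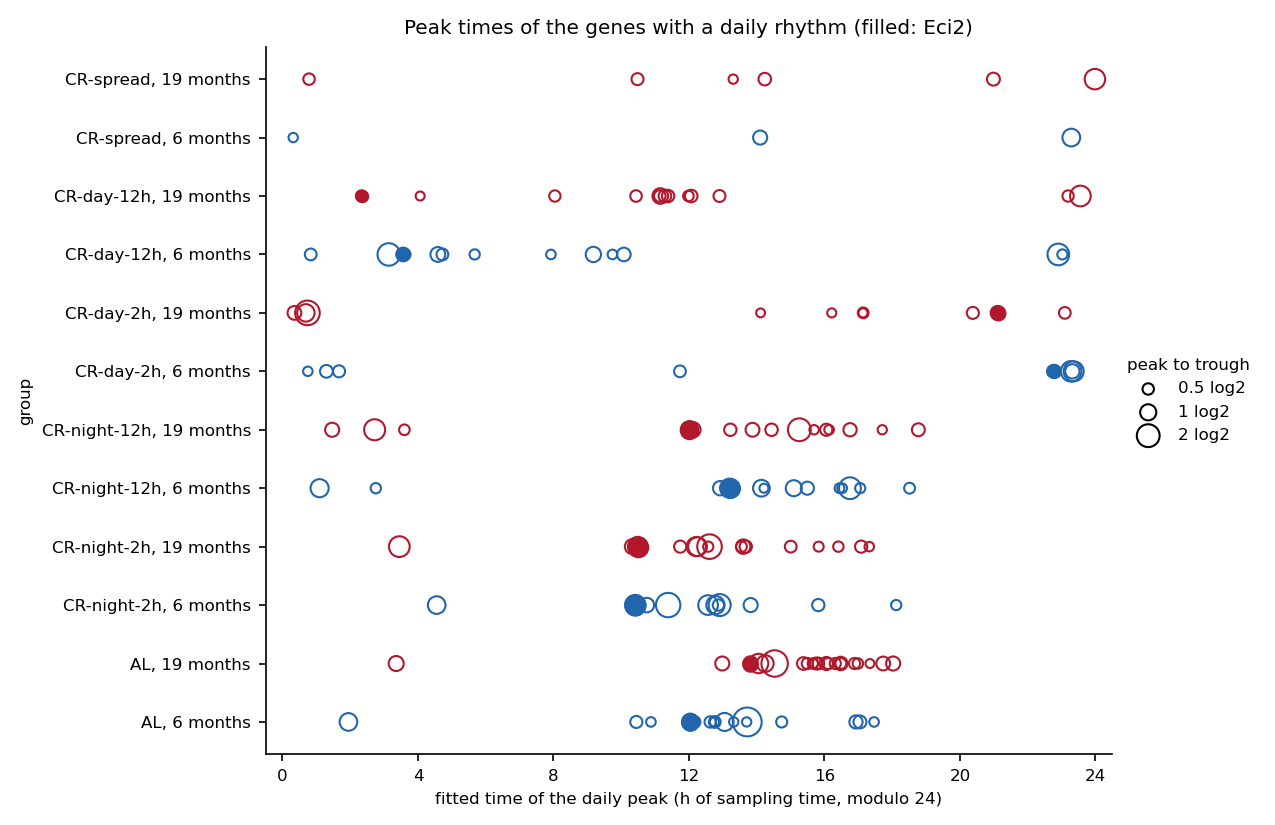
Fitted time of the daily peak, in hours of sampling time folded to 24 h, for every gene of the 31 with a called rhythm in each group; red marks 19 and blue 6 months, larger circles have a larger peak to trough difference and filled circles are Eci2. Eci2 in CR-night-2h lies at hour 10.4 at 6 months, and Eci2 in CR-day-2h lies at hour 21.1 at 19 months and 22.8 at 6 months.

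The rhythms of many of these genes differed between feeding times, as did those of other genes. Equality of both the cosine and the sine term in 2 groups was rejected (padj under 0.05) for 14 of the 31 genes between CR-night-2h and CR-day-2h at 19 months, when it was for 46.7% of all genes, and for 14 at 6 months (37.7%). Between CR-day-2h and AL 18 genes differed at 19 months (35.4%) and 12 at 6 months (28.5%). Between CR-night-2h and AL 1 differed at 19 months (Eci2, 0.556%) and 1 at 6 months (Pex11a, 0.450%).

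Eci2 had the smallest p at both ages. In CR-night-2h at 6 months it peaked at hour 10.4 with a swing of 1.57 ± 0.22, and in CR-day-2h at hour 22.8 with 0.65 ± 0.12 (padj of the difference = 1.6e-17). It had 306.2 and 365.8 CPM at hour 36 in CR-night-2h against 155.1 and 142.3 CPM in CR-day-2h, and 67.2 and 78.1 CPM at hour 24 against 230.0 and 210.0 CPM. At 19 months the peaks of Eci2 were at hour 10.49 in CR-night-2h and 21.1 in CR-day-2h, with swings of 1.46 and 0.75 (padj = 7.2e-18).

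Slc25a20, the carrier of acylcarnitines across the inner mitochondrial membrane, peaked at hour 13.8 in CR-night-2h and 0.7 in CR-day-2h at 6 months (padj = 1.2e-08). Cpt2, which turns acylcarnitine back into acyl-CoA, peaked at hours 15.8 in CR-night-2h and 1.3 in CR-day-2h (padj = 6.4e-08). Pex11a had a swing of 1.48 ± 0.27 around hour 12.6 in CR-night-2h, with 202.7 and 190.8 CPM at hour 36, and no called rhythm in CR-day-2h (padj of the difference = 1.5e-08). At 19 months the next genes after Eci2 were Pex11a (padj = 8.6e-10), Acot4 (1.6e-09) and Acaa1a (1.4e-08).

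**Figure D5:**
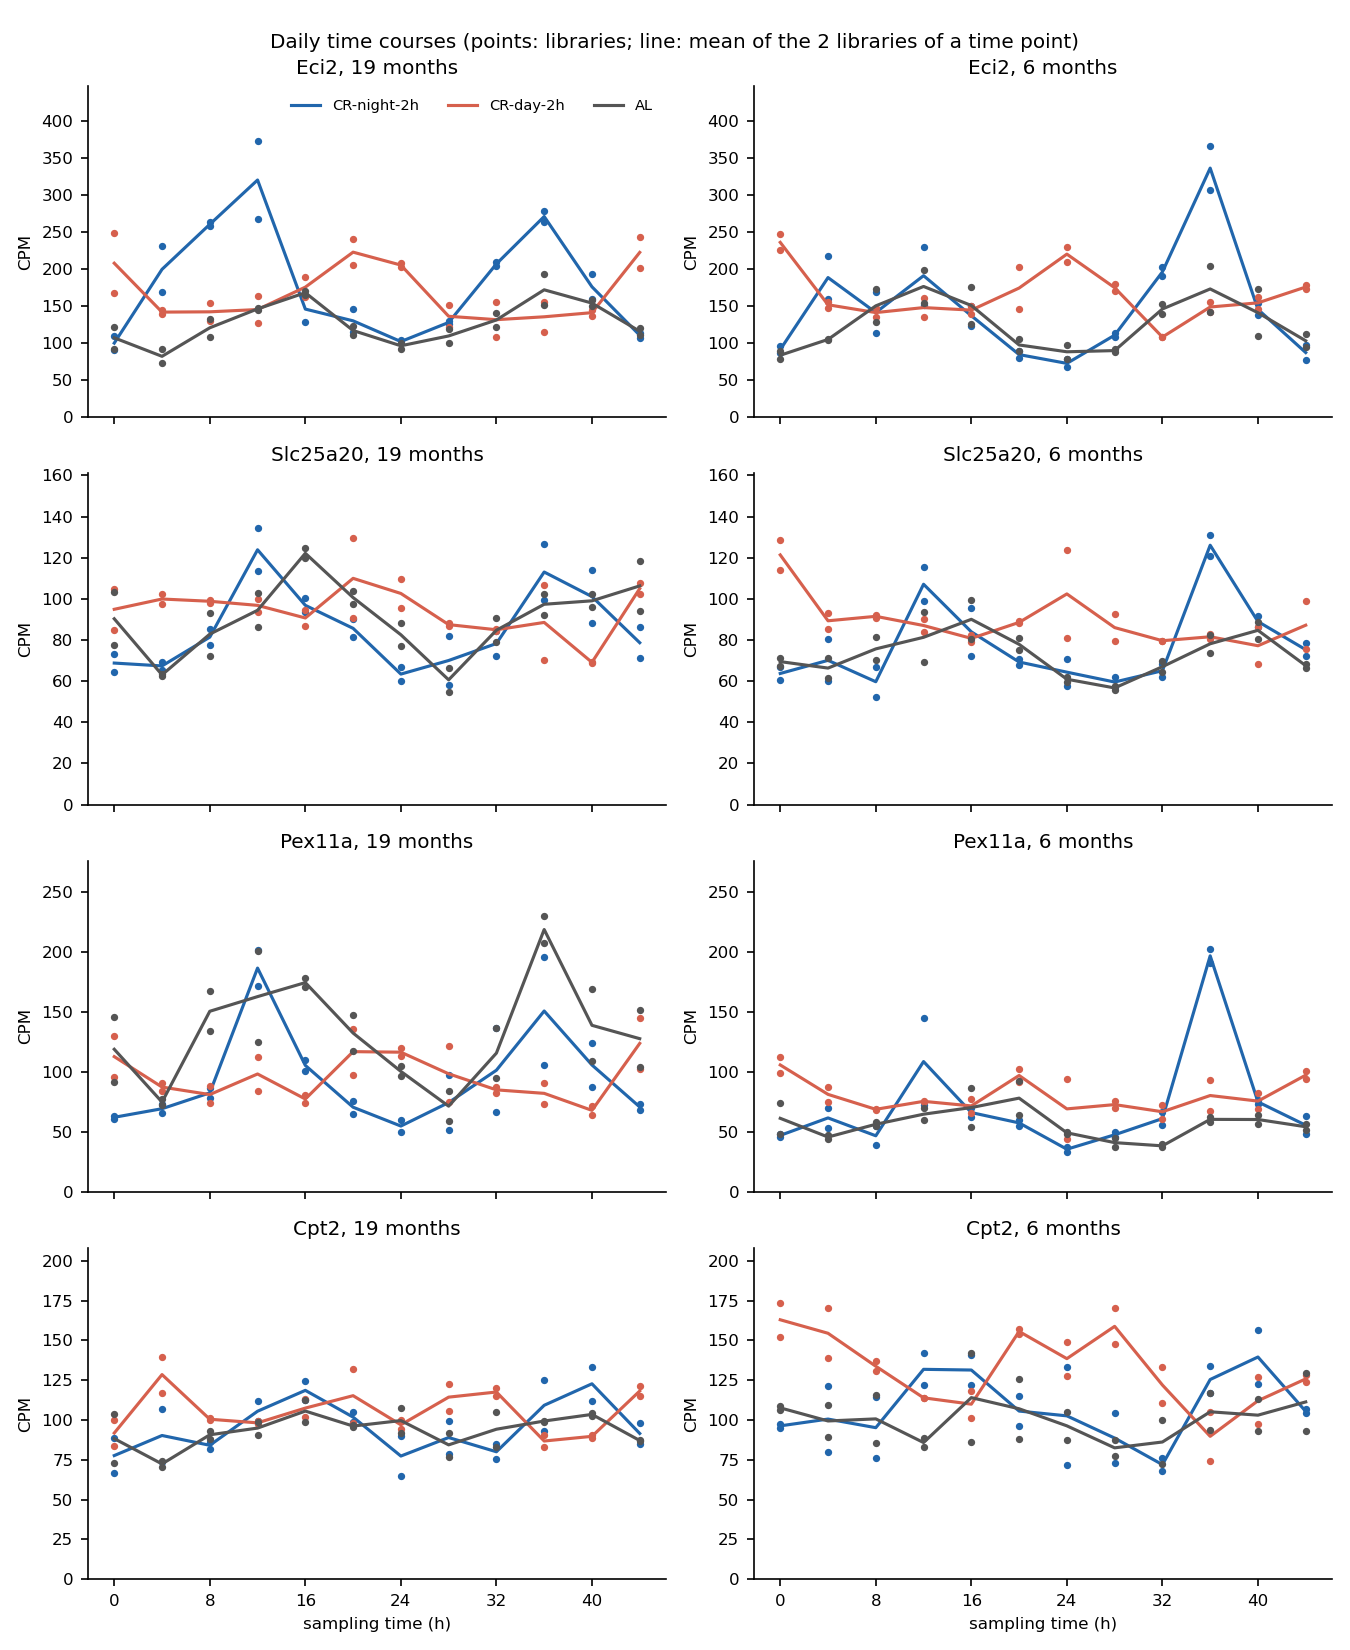
CPM of Eci2, Slc25a20, Pex11a and Cpt2 over the sampling hours in CR-night-2h, CR-day-2h and AL livers, with 19 months left and 6 months right; points are libraries and lines join the mean of the 2 mice. At 6 months Eci2 in CR-night-2h is highest at hour 36 (306.2 and 365.8 CPM) and lowest at hour 24, where CR-day-2h is high.

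Among genes that cycled in both groups the peak times of CR-night-2h and CR-day-2h were 10.1 to 11.9 h apart at 19 months (median 10.8 h, 6 genes) and 5.27 to 12.0 h at 6 months (median 10.2 h, 6 genes). Crot was the gene with the smallest shift at 6 months. CR-night-2h and AL were at most 4.35 h apart at 19 months (median 2.00 h, 15 genes) and 4.48 h at 6 months (median 0.815 h, 9 genes). For the schedules of 12 h the distance between night and day was 3.16 to 9.68 h at 19 months (median 5.18 h, 9 genes) and 2.19 to 11.4 h at 6 months (median 8.33 h, 7 genes).

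Other genes of the pathway gave the setting, beside 8.16% of all genes called in CR-day-2h against AL at 6 months, 15.3% with age in AL and 0.842% with a fast at 6 months. Of 37 further enzymes and carriers of fatty acid oxidation that were tested, 8 were higher and 4 lower in CR-day-2h against AL at 6 months, 5 higher and 5 lower with age in AL, and 3 higher and none lower with a fast against CR-spread at 6 months. Nudt7, a peroxisomal hydrolase of coenzyme A, had a log2FC of -2.12 in CR-day-2h, and Ivd, a dehydrogenase of leucine breakdown, -0.83 with age in AL. Of 28 other PPARA targets 12 were higher and 1 lower in CR-day-2h, 12 higher and none lower with age in AL, and 7 higher with a fast. Cyp4a14, a fatty acid hydroxylase, had a log2FC of 5.54 in CR-day-2h, and Vnn1, a pantetheinase, 2.24 with age in AL. Of 17 enzymes of the tricarboxylic acid cycle edgeR called 0 in these 3 comparisons, with 4 higher and 1 lower by padj alone in CR-day-2h and 3 higher and 7 lower with age.

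Of 14 genes for PPARA and its coregulators edgeR called 0 in CR-day-2h at 6 months, with 3 higher and 2 lower by padj alone, and 2 were lower with age in AL. Of 17 peroxisome biogenesis factors it called 0 in CR-day-2h, with 3 higher and 1 lower by padj alone. With age in AL 2 of the 17 were lower, Pex6 (log2FC = -0.75) and Pex26 (-0.62). In both lists the share lower with age was near or below the 15.3% of all genes called in that comparison.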

How the data were processed

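Libraries of polyA RNA from 288 mouse livers were analysed. The authors deposited raw counts per gene for each library and an RPKM table of 10248 genes; the submitters' processing notes name FastQC, cutadapt, STAR and featureCounts, and for genome build and gene annotation the sources used here give none. All value columns matched a library (0 did not). The deposited counts were analysed with edgeR 4.0.16 (limma 3.58.1, R 4.3.3): TMM scaling, filterByExpr (12228 genes tested), 1 mean for each of 12 groups, quasi-likelihood F tests and Benjamini-Hochberg adjustment over all genes tested. Calls needed an adjusted p under 0.05 and a fold change of at least 1.5. Rhythms used a cosine and a sine of 24 h per group, with an adjusted p under 0.05 and a log2 difference of at least 0.3. CPM values were scaled by TMM, with no prior count; errors of daily amplitudes and phases used log2 CPM with a prior count of 2. The deposited RPKM values served only to compare levels between genes. DESeq2 1.42.0, other scalings, filters, daily terms and replicate blocks, and each replicate letter left out, were alternatives.

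The members and all lists were chosen with earlier results of these data known. Values are given for called genes, up to the 6 with the smallest p in a comparison, or for the 3 with the smallest p where fewer than 3 were called. For rhythms the 6 smallest p in AL at 6 months and the 4 smallest between CR-night-2h and CR-day-2h were named, and up to 3 genes of each other list. Groups come from the labels. Libraries held 2796688 to 18706281 counts; reads without molecular identifiers are not independent molecules. The scripts were tested on simulated data. Shared 50-base stretches and positions use GENCODE M21 (GRCm38).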

Additional observations from a re-analysis of the deposited data

Results flagged for a closer look

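For 9 of the 31 genes the change with age differed between a CR group and AL by the interaction test of edgeR (adjusted p under 0.05, fold at least 1.5), and all 30 differences were negative, so the age effect was lower under CR. Over all genes 12.6% passed in CR-day-2h, 17.1% in CR-night-2h, 8.36% in CR-day-12h, 11.8% in CR-night-12h and 12.1% in CR-spread, and in each group more of them were lower than higher. The values are log2 differences of the age effect in the CR group minus that in AL, and the 5 CR groups share the AL livers. The young AL livers were also the reference for the comparisons of young CR groups with AL, so these results are not separate from those. For Acot2 they were -3.00 in CR-day-2h, -3.82 in CR-night-2h, -2.33 in CR-day-12h, -2.24 in CR-night-12h and -2.34 in CR-spread. For Acot3 they were -2.11 in CR-day-2h, -2.39 in CR-night-2h, -2.38 in CR-day-12h, -1.56 in CR-night-12h and -3.11 in CR-spread. For Acot4 they were -0.86 in CR-day-2h, -1.08 in CR-night-2h, -1.07 in CR-day-12h, -0.66 in CR-night-12h and -1.12 in CR-spread. For Pex11a they were -0.97 in CR-day-2h, -0.82 in CR-night-2h, -1.04 in CR-day-12h, -0.74 in CR-night-12h and -0.74 in CR-spread. For Acaa1b they were -1.27 in CR-day-2h, -0.81 in CR-night-2h, -0.84 in CR-day-12h and -0.61 in CR-night-12h. For Ehhadh they were -1.15 in CR-day-2h and -0.78 in CR-night-2h, and for Hsd17b4 -0.67 in CR-day-2h and -0.59 in CR-night-2h. In CR-day-2h they were -0.72 for Acadm and -0.60 for Ech1. Macrophage markers moved the same way, with 6 of 10 called lower in the interaction of CR-day-2h and 8 of 10 in that of CR-night-2h. The median sum of sinusoidal endothelial markers at 19 months was 0.61 to 0.75 times that at 6 months in the CR groups and 1.04 times in AL. For hepatocyte markers it was 1.02 to 1.15 times in the CR groups and 0.91 times in AL. The part of these markers in the result was not tested.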

How the results depend on the processing

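All 787 values of single genes under the alternatives belonged to called results, so a call could only be kept or lost. No log2FC among them changed direction, and the sizes and tests of daily rhythms among them have no direction. Of the 787 values 740 kept their call and 47 lost it, 28 of these without the A mice and 12 without the B mice. The cause was not tested. Of 327 counts 274 stayed within 1.5 times. The others, beside those that leave out a letter, were as follows. CR-day-12h against AL at 19 months gave 1 gene in place of 0 with daily terms and with a replicate block of hour and letter. The age comparison gave 2 in place of 1 in CR-night-12h under DESeq2, under the hour and letter block and without the 4 libraries, and in CR-night-2h with daily terms. CR-night-2h against CR-day-2h at 19 months gave 1 in place of 0 without the 4 libraries, a choice made after seeing the data. Rhythms in CR-day-12h at 19 months numbered 8 in place of 13 in a separate fit. Rhythm differences of CR-night-2h from AL numbered 2 in place of 1 at 6 months without the 4 libraries and at 19 months with terms of 12 h. Deviations of same-lettered livers correlated by -0.60 to 0.58 over 792 pairs (median 0.01), 185 of them over 0.1. Whether some groups shared a batch by letter was not tested. Depth differed by letter in some groups, as in AL at 19 months, with medians of 11070200 (A) and 7960990 (B) counts. With 1 letter left out, the counts against AL at 6 months were 3 to 4 (CR-spread), 4 to 6 (CR-day-12h), 7 to 10 (CR-day-2h), 2 to 4 (CR-night-12h) and 4 (CR-night-2h), and at 19 months 2 to 3, 0 to 2, 0 to 2, 3 and 0 to 4 in the same order. Age counts were 1 to 3, 0, 0 to 2, 0 to 2 and 0 to 1, and 4 to 8 in AL. Interaction counts were 4 to 6, 4 to 7, 7 to 11, 3 to 6 and 3 to 9. CR-night-2h against CR-day-2h gave 1 to 3 at 6 and 0 to 1 at 19 months, and a fast against CR-spread 0 to 4 and 0 to 1. Rhythm counts at 6 months were 0 to 5, 5, 1 to 7, 5 to 7 and 8 to 10, and 6 to 8 in AL, and at 19 months 1 to 8, 6 to 11, 2 to 9, 5 to 12 and 7 to 12, and 10 to 11 in AL. Rhythm differences at 6 and 19 months were 7 to 12 and 12 (CR-night-2h against CR-day-2h), 6 to 7 and 7 to 9 (CR-day-2h against AL) and 0 to 3 and 0 (CR-night-2h against AL). Acot2 stood at 0.616 CPM in its lowest AL library at 6 months, so that counting error weighs on its low values.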
